A study of Mus musculus with 46 samples.

Results

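The Myc, Max, Mxd and Mlx network was followed here through 7 genes, chosen by symbol among the genes listed in the count tables. These were Myc, Max, Mxi1, Mxd4, Mnt, Mlx and Mlxip, out of 9857 symbols that the tables of DMSO and of torin 1 libraries shared, and all 7 passed the filter on low counts in all comparisons. Of 6 relatives, Mga and Mxd3 were listed as well, whereas Mycn, Mycl, Mxd1 and Mlxipl were not listed. The cells were EPP2, a murine pancreatic cancer line, in a derivative grown from a single cell that carries Cas9 under doxycycline control. In Ctu1 iKO cultures, guide RNAs against Ctu1 were combined with 300 ng/ml doxycycline for 4 days. Ctu1 is the thiolase subunit that adds sulfur to the wobble uridine of the tRNAs that read the codons AAA, CAA and GAA. Control cultures are labelled as wild type. The study used 2 kinds of control, with guide RNAs that target no coding region or with doxycycline left out, and the sources used here do not say which kind these libraries are. The labels give all samples 1 protocol text, in which doxycycline serves to induce the knockout, so whether the control cultures received it is not settled by them. Both genotypes received either DMSO or 300 nM torin 1, an inhibitor of the kinase mTOR, for 2 h. Ribosome footprints were counted in 6 control cultures with DMSO, 6 control cultures with torin 1, 5 Ctu1 iKO cultures with DMSO and 6 Ctu1 iKO cultures with torin 1, and poly(A) RNA was counted from the same cultures.

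Proteins of this network share a basic helix-loop-helix leucine zipper and bind DNA in pairs at the E-box, a short sequence with the letters CACGTG at its most typical. Myc pairs with Max to activate genes of growth and ribosome production. Max also pairs with Mxi1, Mxd4 or Mnt, which recruit Sin3 corepressors and repress overlapping genes. Mlx is the Max-like partner of the other branch. With Mlxip (also known as MondoA) it senses glucose phosphates and activates Txnip, and it can pair with Mxd4 and Mnt too. Mga, the largest protein of the family, and Mxd3 are further partners of Max.

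Footprint libraries held 18067298 to 52907878 counts in control with DMSO, 10148799 to 34715141 in control with torin 1, 10828447 to 34565506 in Ctu1 iKO with DMSO and 4602092 to 18880436 in Ctu1 iKO with torin 1. RNA libraries held 129881946 to 325494304 counts. The tables list genes that reached 100 footprint counts in at least 1 library of a treatment. Ctu1 itself, listed with DMSO alone, did not pass the test in footprints (log2 change of -0.54 ± 0.29 (SE), adjusted p = 0.353) nor in RNA (0.02 ± 0.11, adjusted p = 0.926), so its counts do not tell the genotypes apart. Of 5 epithelial markers, Krt8, Krt18 and Krt19 were listed in the 12 RNA libraries of replicates 1 to 3 and Epcam in 6, while Cdh1 was not listed. Their summed level was 267 to 526 CPM (counts scaled to a total of 1000000 per library). All 5 mesenchymal markers were listed in the 12 libraries, with a summed level of 5390 to 18400 CPM and Vim at 2370 CPM or more. All 3 fibroblast markers were listed in the 12 libraries, with a summed level of 101 to 327 CPM, and of 3 leukocyte markers Cd68 alone was listed, at up to 2.54 CPM. None of 4 acinar, 3 islet and 2 endothelial markers was listed. All 11 footprint libraries of replicates 4 to 6 lay on the side of their label along the torin 1 and the Ctu1 differences set by replicates 1 to 3, whereas 6 of the 11 RNA libraries of replicates 4 to 6 lay on the opposite side for treatment, and 4 of these also for genotype. Along the torin 1 difference, replicates 5 and 6 labelled Ctu1 iKO with torin 1 lay close to the middle, at -0.14 and -0.07. The others of the 6 were at -0.52 and -0.51 (control with torin 1) and at 0.40 and 0.31 (Ctu1 iKO with DMSO). RNA results therefore rest on replicates 1 to 3, and footprint results on all replicates. Bulk lysates were measured, so fewer cells with a transcript and less of it per cell cannot be told apart.

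Per kilobase of coding sequence, Myc had the highest footprint level of the 7, with 1386 ± 102 footprint CPM in control cells with DMSO (SD, n = 6), rank 137 of 9607 genes. It took between 0.174% and 0.203% of all footprint counts there and between 0.437% and 0.504% of all RNA counts. Max followed with 92.9 ± 15.0, Mxi1 with 64.8 ± 18.9, Mlx with 37.3 ± 2.49, Mnt with 8.57 ± 3.02, Mlxip with 5.92 ± 0.861 and Mxd4 with 3.69 ± 1.66 (SD, n = 6 each, footprint CPM per kilobase). In this order, the ranges of Max and Mxi1 overlapped, as did those of Mnt and Mlxip and those of Mlxip and Mxd4. The other neighbours in this order did not overlap. With torin 1, Mnt reached 23.1 ± 7.46 footprint CPM per kilobase in control (SD, n = 6), with a range of 16.5 to 33.5 that overlapped the range of Mlx, 24.8 to 37.1.

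**Figure D1:**
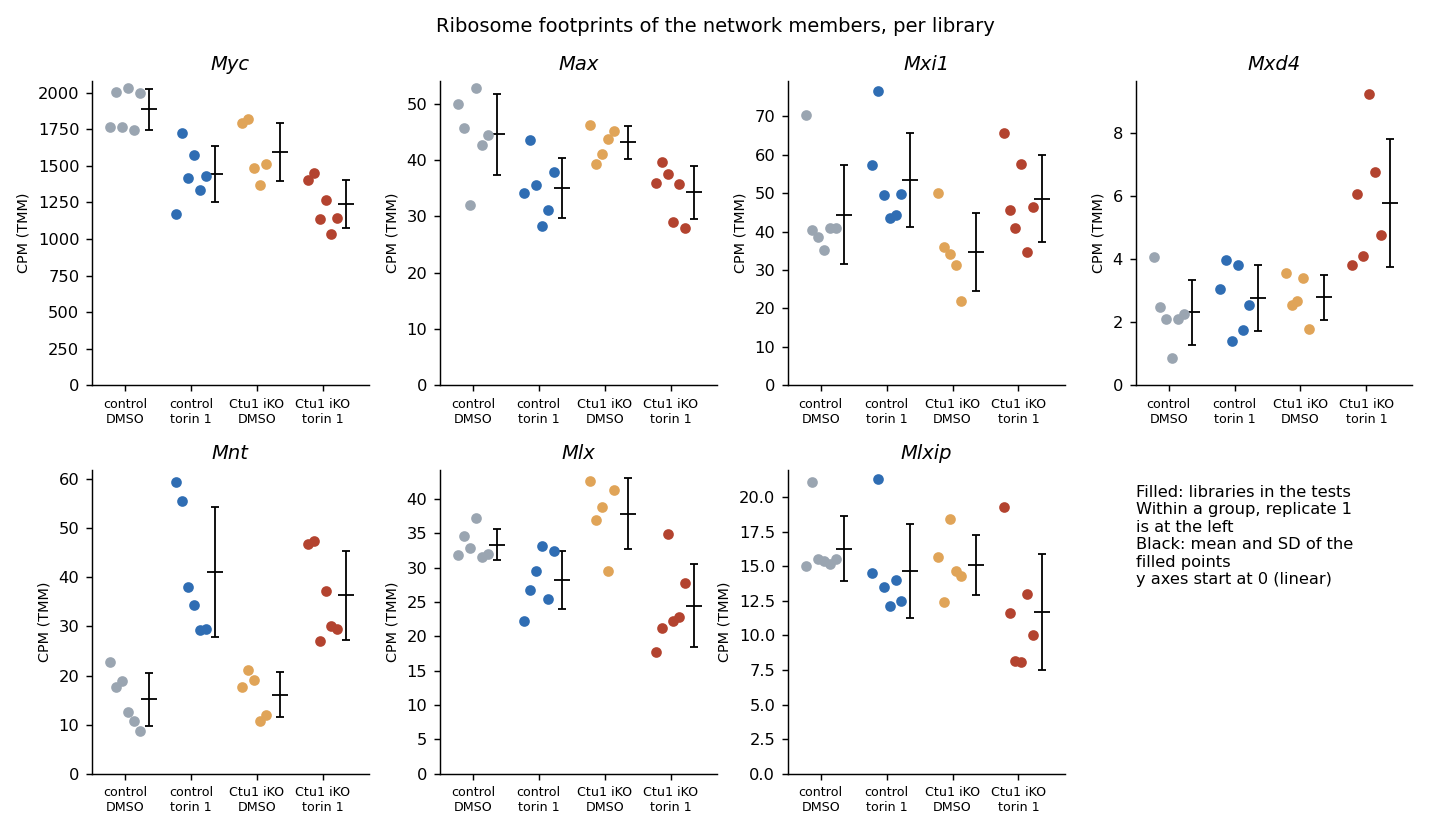
Footprint CPM (y axis, linear from 0, scaled by TMM) of each member in every library, by group (x axis), with replicate 1 at the left of each group and the mean and SD in black. The Mnt points with torin 1, at 27.1 or more, lie above those with DMSO, at 22.7 or less.

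Mnt, the Max partner that represses Myc targets, rose with torin 1 in both genotypes and both assays. Mnt lies on chromosome 11 (chr11:74830920-74845725, GRCm38, plus strand). Its footprints in the 6 control cultures with DMSO had a lowest value of 8.71 CPM, a median of 15.1 and a highest of 22.7. With torin 1 these were 29.3, 36.2 and 59.4 CPM in the 6 control cultures. The groups did not overlap, and Mnt was higher with torin 1 for all 6 replicate numbers. The footprints rose 2.70-fold in the fit (log2 change of 1.43 ± 0.25 (SE), edgeR adjusted p = 0.00185). In Ctu1 iKO, Mnt footprints were at 17.6, 21.2, 19.1, 10.7 and 12 CPM with DMSO and had a lowest value of 27.1, a median of 33.6 and a highest of 47.4 CPM with torin 1. The groups again did not overlap, and the footprints rose 2.25-fold (log2 change of 1.17 ± 0.22, edgeR adjusted p = 0.00371).

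Mnt transcripts showed the same direction. In control, they were at 26.3, 28.6 and 33.1 CPM with DMSO and at 61.3, 69.1 and 63.4 CPM with torin 1, a 2.17-fold rise (log2 change of 1.12 ± 0.10, edgeR adjusted p = 0.00126). In Ctu1 iKO, they were at 26.5, 29.9 and 22.2 CPM with DMSO and at 57.5, 64.6 and 50.7 CPM with torin 1, a 2.20-fold rise (log2 change of 1.14 ± 0.14, edgeR adjusted p = 0.00735). Every one of the 6 RNA libraries with torin 1 was above every one of the 6 with DMSO. Mnt footprints were lower in replicates 4 to 6 than in replicates 1 to 3 in control cells with either treatment, and the rise was found in both sets. It came to a log2 change of 1.52 ± 0.20 in replicates 1 and 2 and of 1.37 ± 0.21 in replicates 3 to 6 of control footprints (edgeR adjusted p = 0.0138 and 0.00294). In Ctu1 iKO it came to 1.27 ± 0.25 and 1.15 ± 0.21 (edgeR adjusted p = 0.0843 and 0.00746), so that the call was not made on replicates 1 and 2 alone.

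Of the 6 RNA libraries of replicates 4 to 6 that lay on the opposite side of their treatment label, 4 did so for Mnt as well. Those labelled Ctu1 iKO with DMSO had 65.1 and 55.5 CPM in replicates 4 and 5, in the range of torin 1 libraries. Those labelled control with torin 1 had 17.2 and 16.5 CPM in replicates 5 and 6, in the range of DMSO libraries. The other 2, labelled Ctu1 iKO with torin 1, had 52.5 and 42.3 CPM in replicates 5 and 6, above all 6 DMSO libraries of replicates 1 to 3. The footprint libraries of the first 4 cultures had 10.7 and 12 CPM and 29.3 and 29.4 CPM, each in the range of its label. With all RNA replicates, the Mnt RNA change with torin 1 was 0.96 in control (edgeR adjusted p = 0.0917) and 0.40 in Ctu1 iKO (edgeR adjusted p = 0.972).

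**Figure D2:**
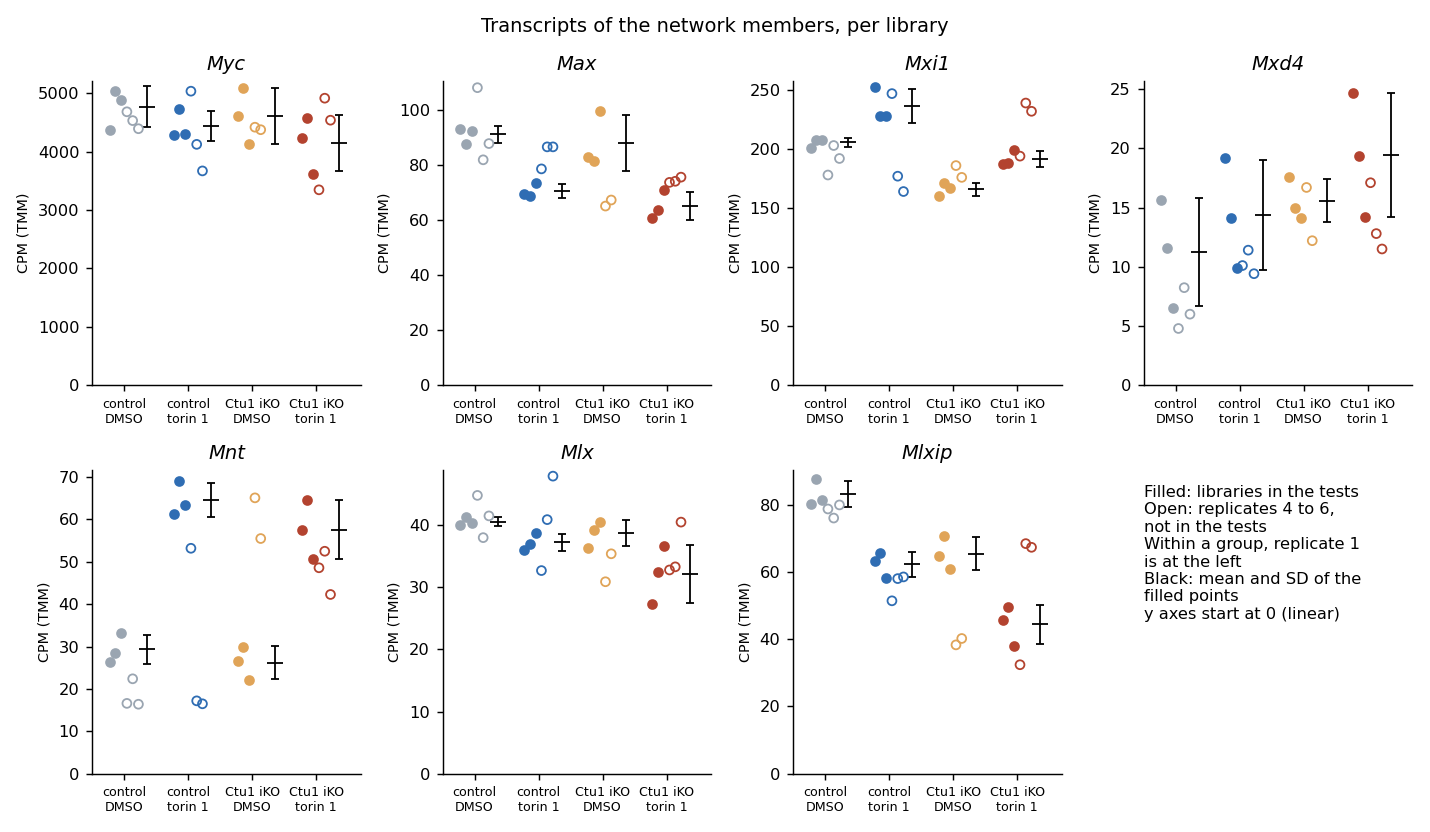
RNA CPM (y axis, linear from 0, scaled by TMM) of each member in every library, by group (x axis). Filled points are replicates 1 to 3, which enter the tests, open points are replicates 4 to 6, which do not, and black marks give the mean and SD of the filled points. For Mnt, 2 open points lie at 17.2 or less among the control libraries labelled torin 1, and 2 at 55.5 or more among the Ctu1 iKO libraries labelled DMSO.

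The promoters of the members that carry an E-box are shown here because this is the sequence that the network's own proteins bind. The letters CACGTG, which read the same on both strands, were searched in RefSeq windows of GRCm38 from 250 bases before to 50 bases after the first transcribed base, counted as 0. They were found in 4 of the 6 members that have such a window, and in 7.15% of all 32851 windows. These 4 were Mnt, Mxd4, Max and Mlx, so the letters were found in genes with positive and with negative changes with torin 1. In Mnt the E-box starts at position -123, in Mxd4 at -219, in Mlx at -40, and in Max at -3, across the start itself. It is given in capitals below.
Mnt promoter, chr11:74830674-74830953, plus strand: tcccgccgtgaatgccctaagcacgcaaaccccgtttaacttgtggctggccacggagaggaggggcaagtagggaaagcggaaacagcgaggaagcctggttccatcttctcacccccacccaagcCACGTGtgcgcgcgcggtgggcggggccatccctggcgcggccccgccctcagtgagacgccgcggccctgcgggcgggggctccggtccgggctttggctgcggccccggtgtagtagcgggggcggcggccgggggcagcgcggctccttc
Mxd4 promoter, chr5:34187897-34187956, minus strand: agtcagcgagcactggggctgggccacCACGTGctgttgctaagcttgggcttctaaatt
Max promoter, chr12:76962219-76962278, minus strand: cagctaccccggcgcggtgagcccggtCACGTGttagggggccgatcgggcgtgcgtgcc
Mlx promoter, chr11:101087223-101087282, plus strand: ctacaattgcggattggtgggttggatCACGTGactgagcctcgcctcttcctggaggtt
The letters GTAAACA, bound by FoxO factors, were found in the window of Mxi1 alone, and in 3.65% of all windows, with both strands searched. The letters TGATGCAA, bound by ATF4, were found in none of the 6, and in 0.895% of all windows. These matches are descriptions of letters, not of bound sites.

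Myc footprints fell with torin 1 in control cells. Myc (chr15:61985391-61990374, GRCm38, plus strand) had a lowest footprint level of 1744 CPM, a median of 1886 and a highest of 2032 with DMSO, and of 1171, 1426 and 1726 with torin 1 in the 6 control cultures each. The groups did not overlap, Myc was lower with torin 1 for all 6 replicate numbers, and the level came to 0.765 of that with DMSO (log2 change of -0.39 ± 0.10, edgeR adjusted p = 0.0224). In Ctu1 iKO, Myc footprints were at 1793, 1823, 1483, 1371 and 1515 CPM with DMSO, and at 1036, 1204 and 1455 CPM (lowest, median, highest of 6) with torin 1. The size was close to that in control, with a log2 change of -0.37 ± 0.11, but the groups overlapped and the test was not passed (edgeR adjusted p = 0.0568). Myc was lower with torin 1 in 5 of 5 same-numbered pairs. A term that sets replicates 1 and 2 apart from the later ones is called the batch block here, although the labels name no batch. With it the test was passed (-0.35 ± 0.06, edgeR adjusted p = 0.00251), where 1368 of 9855 genes were called. It was also passed without the DMSO library of replicate 4 or the torin 1 library of replicate 1 or 2 (log2 change of -0.42 in each of these 3 fits, edgeR adjusted p between 0.0315 and 0.0451). Replicates 3 to 6 alone gave -0.39 ± 0.08 in control (edgeR adjusted p = 0.0194) and -0.36 ± 0.09 in Ctu1 iKO (edgeR adjusted p = 0.0339), while replicates 1 and 2 alone gave -0.38 ± 0.17 and -0.35 ± 0.10, not called (edgeR adjusted p = 0.479 and 0.271).

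Myc transcripts were not called. They were at 4369, 5041 and 4892 CPM with DMSO and at 4282, 4738 and 4303 CPM with torin 1 in control (log2 change of -0.12 ± 0.08, edgeR adjusted p = 0.389). In Ctu1 iKO they were at 4618, 5084 and 4129 CPM with DMSO and at 4237, 4584 and 3622 CPM with torin 1 (log2 change of -0.15 ± 0.12, edgeR adjusted p = 0.481). Each of the 6 same-numbered pairs was lower with torin 1, while the groups overlapped. Within each library, in footprint CPM not scaled by length, Myc was at 77.9 to 230 times the level of Mnt in control with DMSO (median 137) and 19.7 to 48.6 times with torin 1 (median 41.5). In Ctu1 iKO the ratios of footprint CPM ran from 77.7 to 129 with DMSO and from 30.0 to 42.0 with torin 1. The ranges of this ratio did not overlap between treatments in either genotype, which is a description that both genes' values set.

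Max, the shared partner, had lower transcripts with torin 1. Max (chr12:76937269-76962201, GRCm38, minus strand) was at 93.0, 87.6 and 92.4 RNA CPM with DMSO and at 69.4, 68.5 and 73.4 CPM with torin 1 in control, so the groups did not overlap and the transcripts fell to 0.765 of their level (log2 change of -0.39 ± 0.06, edgeR adjusted p = 0.00919). In Ctu1 iKO, Max RNA was at 82.7, 81.3 and 99.5 CPM with DMSO and at 60.6, 63.6 and 70.7 CPM with torin 1, again without overlap but not called (log2 change of -0.44 ± 0.11, edgeR adjusted p = 0.0545). Without the torin 1 library of replicate 3 it was called (log2 change of -0.50, edgeR adjusted p = 0.0377). Max footprints had log2 changes of -0.35 ± 0.13 in control and -0.34 ± 0.12 in Ctu1 iKO and were not called (edgeR adjusted p = 0.134 and 0.114). Their ranges overlapped, with 32.0 to 52.8 CPM against 28.3 to 43.5 CPM in control and 39.3 to 46.3 CPM against 27.9 to 39.6 CPM in Ctu1 iKO.

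Of the other Max partners of the repressing branch, Mxi1 was not called with torin 1 in either assay or genotype, and Mxd4 was past the threshold in Ctu1 iKO footprints alone. Mxd4 (chr5:34173883-34187720, GRCm38, minus strand) had 17 to 121 footprint counts per library. With torin 1 it reached the 100 counts that the tables require in 1 library, replicate 4 of Ctu1 iKO, while the control libraries with torin 1 had 18 to 90. Its place in the torin 1 tables thus depends on the group where it was highest, so its change there is given as a description. In Ctu1 iKO its footprints were at 3.57, 2.53, 2.67, 3.39 and 1.79 CPM with DMSO and at 3.81, 4.78, 4.09, 6.08, 6.76 and 9.24 CPM with torin 1, without overlap. The fitted level with torin 1 was 2.08-fold that with DMSO (log2 change of 1.06 ± 0.30, edgeR adjusted p = 0.042). The threshold was missed in 8 of the 11 fits that each left out 1 library, namely those without DMSO replicate 2, 3, 4 or 5 or without torin 1 replicate 2, 4, 5 or 6 (log2 change between 0.87 and 1.14, edgeR adjusted p between 0.0598 and 0.112). In control, Mxd4 footprints were at 0.845 to 4.08 CPM with DMSO and 1.41 to 3.98 CPM with torin 1 and were not called (log2 change of 0.24 ± 0.35, edgeR adjusted p = 0.775). Mxd4 RNA had log2 changes of 0.34 ± 0.34 in control and 0.32 ± 0.20 in Ctu1 iKO, neither called. Its RNA differed by replicate number, with 15.6, 11.6 and 6.52 CPM in control with DMSO and 19.2, 14.1 and 9.86 CPM with torin 1, and it was higher with torin 1 in 3 of 3 same-numbered pairs of each genotype.

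Mxi1 (chr19:53310518-53375810, GRCm38, plus strand) had footprints with log2 changes with torin 1 of 0.27 ± 0.18 in control and 0.48 ± 0.21 in Ctu1 iKO, not called (edgeR adjusted p = 0.433 and 0.198), and were higher in 5 of 6 and in 5 of 5 same-numbered pairs. Its RNA was at 201, 208 and 208 CPM with DMSO and at 253, 228 and 228 CPM with torin 1 in control, and at 160, 171 and 167 CPM and 187, 188 and 199 CPM in Ctu1 iKO. The groups did not overlap within a genotype, but the changes of 0.18 ± 0.07 and 0.21 ± 0.08 were not called (edgeR adjusted p = 0.126 and 0.146).

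In the Mlx branch, Mlx was called with torin 1 in footprints of Ctu1 iKO, and Mlxip in RNA of both genotypes. Mlx (chr11:101087277-101092207, GRCm38, plus strand) had footprints at 42.6, 37.0, 38.8, 29.5 and 41.4 CPM with DMSO and at 17.8, 22.6 and 34.9 CPM (lowest, median, highest of 6) with torin 1 in Ctu1 iKO. They fell to 0.646 of their level (log2 change of -0.63 ± 0.17, edgeR adjusted p = 0.0355), although 1 library with torin 1, replicate 3, lay within the DMSO range. The call was lost in 7 of the 11 fits that left out 1 library, those without DMSO replicate 1, 2, 3 or 5 or without torin 1 replicate 2, 4 or 5 (log2 change between -0.64 and -0.58, edgeR adjusted p between 0.0648 and 0.091). The log2 change was -1.03 ± 0.26 in replicates 1 and 2 and -0.45 ± 0.18 in replicates 3 to 6, neither called (edgeR adjusted p = 0.196 and 0.176). In control, Mlx footprints were at 31.5 to 37.3 CPM and 22.2 to 33.1 CPM and were not called (log2 change of -0.24 ± 0.11, edgeR adjusted p = 0.226). Mlx RNA had log2 changes of -0.14 ± 0.06 and -0.27 ± 0.12, not called.

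Mlxip (chr5:123394798-123457932, GRCm38, plus strand), the glucose-responsive partner of Mlx, fell with torin 1 in RNA. It was at 80.2, 87.6 and 81.5 CPM with DMSO and at 63.2, 65.5 and 58.2 CPM with torin 1 in control (log2 change of -0.43 ± 0.07, edgeR adjusted p = 0.00968). In Ctu1 iKO it was at 64.8, 70.6 and 60.9 CPM with DMSO and at 45.7, 49.5 and 37.9 CPM with torin 1 (log2 change of -0.56 ± 0.12, edgeR adjusted p = 0.0323). The groups did not overlap in either genotype. Without the DMSO library of replicate 2 the control call was lost (log2 change of -0.39, edgeR adjusted p = 0.0579). The Ctu1 iKO call was lost in 5 of 6 such fits, all but that without the torin 1 library of replicate 3 (log2 change between -0.65 and -0.49, edgeR adjusted p between 0.059 and 0.129). Mlxip footprints had changes of -0.16 ± 0.15 and -0.39 ± 0.22, not called, and in Ctu1 iKO the sign turned between replicates 1 and 2 (0.11 ± 0.38) and replicates 3 to 6 (-0.69 ± 0.21), neither called.

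**Figure D3:**
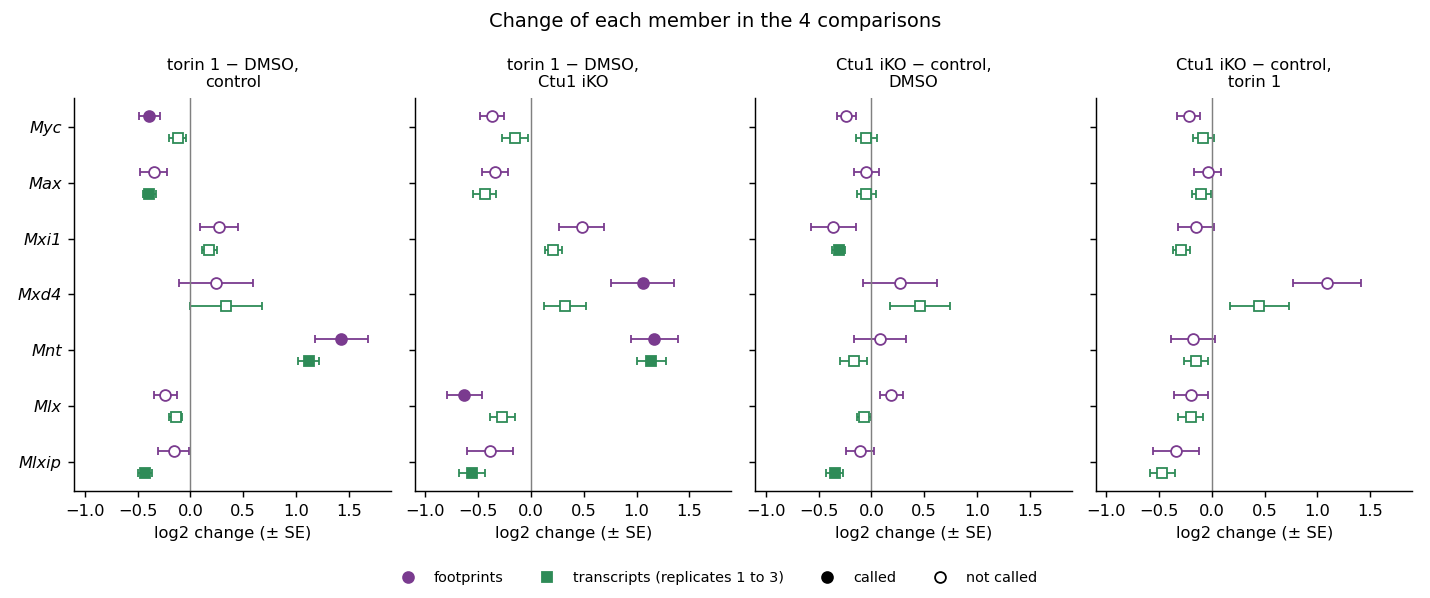
Log2 change with its standard error (x axis) of each member (y axis) in footprints (circles) and in RNA of replicates 1 to 3 (squares), for torin 1 against DMSO in control and Ctu1 iKO and for Ctu1 iKO against control with DMSO and with torin 1. Filled symbols passed an adjusted p of 0.05, and Mnt is filled in both assays of both torin 1 panels, at 1.12 to 1.43.

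Counted over the network, 2 of the 7 members were called in control footprints with torin 1 and 3 of 7 in Ctu1 iKO footprints, where 7.24% and 8.0% of all genes tested were called. The 3 include Mxd4, whose listing rests on 1 library with torin 1, and 2 were called without it. In RNA, 3 of 7 were called in control and 2 of 7 in Ctu1 iKO, beside 13.1% and 8.25% of all genes. The median log2 change over the members was -0.16 and -0.34 in footprints of control and Ctu1 iKO, and -0.12 and -0.15 in RNA, with medians of all genes of 0.015, 0.018, 0.001 and 0.003. The RNA libraries of replicates 1 to 3 paired by number, with correlations of their deviations between 0.33 and 0.74 in all 12 pairs. With the replicate number as a block, all 7 members were called in RNA with torin 1 in both genotypes, but so were 43.7% of all genes in control and 35.1% in Ctu1 iKO. In that fit, Mnt, Mxi1 and Mxd4 had positive RNA changes and Myc, Max, Mlx and Mlxip negative ones. For Myc the blocked RNA change was -0.12 ± 0.04 in control (edgeR adjusted p = 0.0323) and -0.15 ± 0.05 in Ctu1 iKO (edgeR adjusted p = 0.0323). With the batch block, Myc was called in neither genotype (edgeR adjusted p = 0.209 and 0.1), nor were Mlx and Mxd4. Mxi1 was not called with it in Ctu1 iKO (edgeR adjusted p = 0.0527).

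Between Ctu1 iKO and control, no member was called in footprints. None of the 7 was called with DMSO, where 2.66% of all genes were called, and none with torin 1, where 4.83% were. At an unadjusted p under 0.05 there was 1 member in each of these comparisons by edgeR, and DESeq2 called 0 and 1 at an adjusted p under 0.05. With torin 1 the member was Mxd4 in both tests, and its listing is described below. Myc footprints had a log2 change of -0.24 ± 0.09 with DMSO and -0.22 ± 0.11 with torin 1, not called (edgeR adjusted p = 0.176 and 0.311), and were lower in Ctu1 iKO in 4 of 5 and in 5 of 6 same-numbered pairs. In replicates 3 to 6 alone, the change was -0.37 ± 0.09 with DMSO and -0.33 ± 0.09 with torin 1 (edgeR adjusted p = 0.0637 and 0.0428), and in replicates 1 and 2 alone it was -0.06 ± 0.08 and -0.03 ± 0.20 (edgeR adjusted p = 0.828 and 0.977). Mxd4 footprints with torin 1 were at 1.41 to 3.98 CPM in control and 3.81 to 9.24 CPM in Ctu1 iKO and were not called (log2 change of 1.09 ± 0.32, edgeR adjusted p = 0.0646). The footprint libraries with torin 1 paired by number, with correlations between 0.33 and 0.56 in the 6 pairs. With the replicate block, Mxd4 had 1.11 ± 0.27 (edgeR adjusted p = 0.0225), where 14.4% of all genes were called. Since Mxd4 was listed with torin 1 through Ctu1 iKO replicate 4 alone, these values are a description and support no difference between the genotypes.

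In RNA with DMSO, Mxi1 and Mlxip were lower in Ctu1 iKO, 2 of 7 members called beside 5.12% of all genes. Mxi1 was at 201, 208 and 208 CPM in control and at 160, 171 and 167 CPM in Ctu1 iKO (log2 change of -0.31 ± 0.06, edgeR adjusted p = 0.0349), and Mlxip at 80.2, 87.6 and 81.5 CPM in control and at 64.8, 70.6 and 60.9 CPM in Ctu1 iKO (-0.35 ± 0.08, edgeR adjusted p = 0.0452). Neither group pair overlapped. Leaving out 1 library ended the Mxi1 call in 5 of 6 fits, all but that without Ctu1 iKO replicate 3 (log2 change between -0.34 and -0.28, edgeR adjusted p between 0.0784 and 0.165), and the Mlxip call in all 6 (log2 change between -0.42 and -0.30, edgeR adjusted p between 0.0682 and 0.192). With torin 1, none of the 7 was called beside 1.31% of all genes, although Mxi1 and Mlxip had changes of -0.29 ± 0.08 and -0.47 ± 0.12 and did not overlap between the genotypes. At an unadjusted p under 0.05 there were 2 members by edgeR, and DESeq2 called 2. With the replicate block, Mxi1, Mlxip and Mxd4 were called in RNA both with DMSO and with torin 1, beside 28.0% and 32.8% of all genes. Mxd4 was the one of these with a positive change, 0.54 ± 0.16 with DMSO and 0.46 ± 0.07 with torin 1 (edgeR adjusted p = 0.0346 and 0.00208). With the batch block Mxd4 was called in neither (edgeR adjusted p = 0.0547 and 0.0739). Since it was listed with torin 1 through Ctu1 iKO footprint replicate 4 alone, its value there is a description.

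Whether the torin 1 effect differed between the genotypes was tested as an interaction. None of the 7 members passed in footprints, where 0.639% of all genes did, nor in RNA, where 0% of all genes did. No member had an unadjusted p under 0.05 in either by edgeR, and DESeq2 called no member. The interaction was -0.26 ± 0.35 for Mnt, 0.02 ± 0.15 for Myc, 0.82 ± 0.46 for Mxd4 and -0.38 ± 0.20 for Mlx in footprints (log2, Ctu1 iKO minus control, edgeR adjusted p = 1 each). The calls for Mxd4 and Mlx in Ctu1 iKO but not in control are thus not shown to differ between the genotypes.

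The codons of the members are shown because Ctu1 serves the tRNAs for AAA, CAA and GAA. The share of AAA codons was 1.98% in Myc, 3.12% in Max, 2.63% in Mxi1, 1.44% in Mxd4, 0.846% in Mnt, 2.01% in Mlx and 1.74% in Mlxip, beside a median of 2.19% over 9607 genes with a coding sequence (GENCODE M21). Mnt was at percentile 14.2 of these genes and Max at percentile 70.5. Max stood out by its CAA codons, at 5% of its 160 codons and percentile 99.4. The stretches of 20 codons with the most AAA are given for Myc, for Max and for Mnt, with AAA codons in capitals. The stretch of Myc lies in its leucine zipper, and that of Max in the basic region that contacts DNA. Positions are counted from the first codon of the annotated coding sequence, which in the Myc transcript used is not ATG.
Myc, codons 426 to 445, chr15:61989819-61989878, plus strand: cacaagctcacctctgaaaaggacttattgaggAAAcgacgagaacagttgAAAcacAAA
Max, codons 22 to 41, chr12:76953217-76953276, minus strand: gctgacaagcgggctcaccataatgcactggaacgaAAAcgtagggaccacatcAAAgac
Mnt, codons 197 to 216, chr11:74836878-74836937, plus strand: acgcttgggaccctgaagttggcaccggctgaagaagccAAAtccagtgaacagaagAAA
None of the 7 members was called in translational efficiency (footprints relative to RNA, tested in 1 model of both assays), whether for loss of Ctu1 with DMSO, where 0% of all genes were called, or with torin 1, where 0.114% were. Max, with the most AAA, had efficiency changes of 0.04 ± 0.22 and 0.11 ± 0.18, and Mnt, with the least, of 0.13 ± 0.21 and -0.19 ± 0.31 (log2, ± SE). One member had an unadjusted p under 0.05 by edgeR with DMSO and none with torin 1. The member with DMSO was Mlx, at 0.32 ± 0.14.

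Torin 1 did not give a called efficiency change in any of the 7 members either, beside 1.18% of all genes in control and 1.77% in Ctu1 iKO. No member had an unadjusted p under 0.05 by edgeR, and DESeq2 called no member in any of the 4 efficiency comparisons. For Myc the change was -0.24 ± 0.18 in control and -0.21 ± 0.19 in Ctu1 iKO, and for Mnt 0.25 ± 0.23 and -0.09 ± 0.29 (log2, ± SE). Each of these changes was within about 2 standard errors of 0, and what size could be detected at 3 cultures a group was not tested. The members differed from each other in their base level. In control with DMSO, the log2 ratio of footprint to RNA CPM was -1.37 ± 0.09 for Myc (SD, n = 3), at percentile 12.1 of 9857 genes, -2.10 ± 0.51 for Mxi1 at percentile 3.5, -1.88 ± 0.31 for Mxd4 at percentile 5.1 and -2.28 ± 0.20 for Mlxip at percentile 2.6. Max was at -1.12 ± 0.35, Mnt at -0.57 ± 0.32 and Mlx at -0.29 ± 0.04, at percentiles 17.8, 37.2 and 49.6. RNA counts include untranslated regions and footprints mostly do not, so a long untranslated region lowers this ratio.

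**Figure D4:**
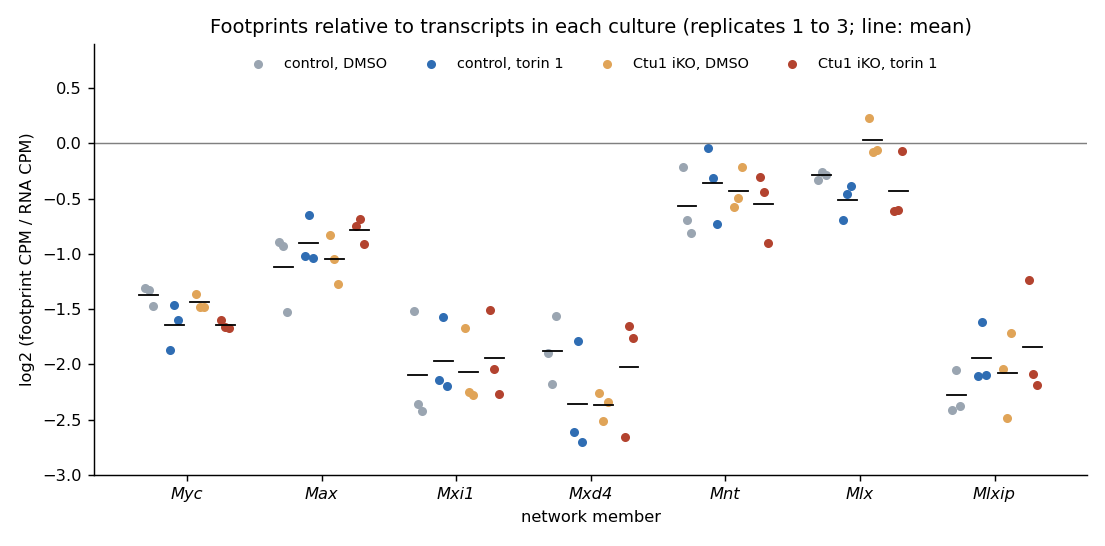
Log2 ratio of footprint CPM to RNA CPM (y axis) of each member (x axis) in the cultures of replicates 1 to 3, 1 point per culture, with the group mean as a line. Mlxip, Mxi1 and Mxd4 lie lowest in control with DMSO, with means of -2.28, -2.10 and -1.88, and Mlx lies highest at -0.29.

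Genes that the network is known to act on were counted as whole lists. The list of Myc-activated genes was written by hand from general knowledge. All lists were chosen with earlier results of these data known, so their counts are descriptions and no independent support. The 61 genes of the activated list act mostly in ribosome production, nucleotide synthesis and metabolism. Of these, 17 fell and 0 rose in control footprints with torin 1, where 4.33% of all genes fell and 2.91% rose. The median log2 change of the list was -0.27, and 54 of 61 were below 0. Ndufaf4, an assembly factor of complex I, fell to 0.465 of its level (log2 change of -1.11 ± 0.17, edgeR adjusted p = 0.000796), and Rrs1 and Nop2, which act in ribosome assembly, had changes of -1.0 ± 0.16 and -0.92 ± 0.22. In Ctu1 iKO footprints, 19 of the 61 fell and 0 rose, where 4.52% of all genes fell and 3.48% rose, and the median was -0.30. There Rrs1 had a change of -1.15 ± 0.19, and Odc1, the first enzyme of polyamine synthesis, one of -1.14 ± 0.12 (edgeR adjusted p = 0.00144 and 2.62e-05). In RNA, 15 of 61 fell in control and 12 of 61 in Ctu1 iKO, and none rose, where 7.40% and 4.52% of all genes fell and 5.69% and 3.73% rose. The counts in footprints depended on the cultures used. In replicates 1 to 3, 0 of the 61 fell in control and 3 in Ctu1 iKO, while in replicates 3 to 6 it was 20 and 18. Of all genes, 138 of 9854 and 178 of 9848 were called in replicates 1 to 3, with 31 of them higher in each genotype. In replicates 3 to 6, 647 of 9855 and 830 of 9854 were called, with 257 and 362 of them higher. Without 1 library, Ctu1 iKO gave 11 to 19, with 11 or 12 without DMSO replicate 3, 4 or 5 or without torin 1 replicate 2 or 5. Those fits called 527 to 921 of 9855 genes in either direction.

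Of 7 genes known as repressed by Myc and listed with both treatments, 4 rose in control footprints and 3 in Ctu1 iKO, and none fell, where 2.91% and 3.48% of all genes rose. The others did not pass, among them Ndrg2 at 0.15 ± 0.18 and -0.27 ± 0.26. In replicates 1 to 3 alone, 0 and 1 of the 7 rose, where 31 of 9854 and 31 of 9848 genes rose. Ndrg1, a growth-restraining stress gene, rose 1.85-fold in control and 2.34-fold in Ctu1 iKO footprints (log2 change of 0.89 ± 0.11 and 1.23 ± 0.13, edgeR adjusted p = 0.000109 and 1.92e-05). Cdkn1b, the cell cycle inhibitor p27, rose 1.74-fold and 1.82-fold. In RNA, 3 of 7 rose in each genotype, Ndrg1, Cdkn1b and Cdkn2b, where 5.69% and 3.73% of all genes rose. The part of the network in these changes was not tested. Scaling by library totals shifted the median change of all genes in footprints to 0.10 in control and 0.11 in Ctu1 iKO, and moved the split of all calls, with 64.8% of calls higher in place of 40.2% in control footprints and 64.7% in place of 43.5% in Ctu1 iKO footprints, and in RNA with 33.3% in place of 43.4% and 30.8% in place of 45.2%. Under that scaling 15 and 11 of the 61 activated genes fell in footprints and 17 and 14 in RNA. All calls there, in either direction, were 929 of 9856 and 897 of 9855 genes in footprints and 1336 of 9617 and 939 of 9619 in RNA.

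**Figure D5:**
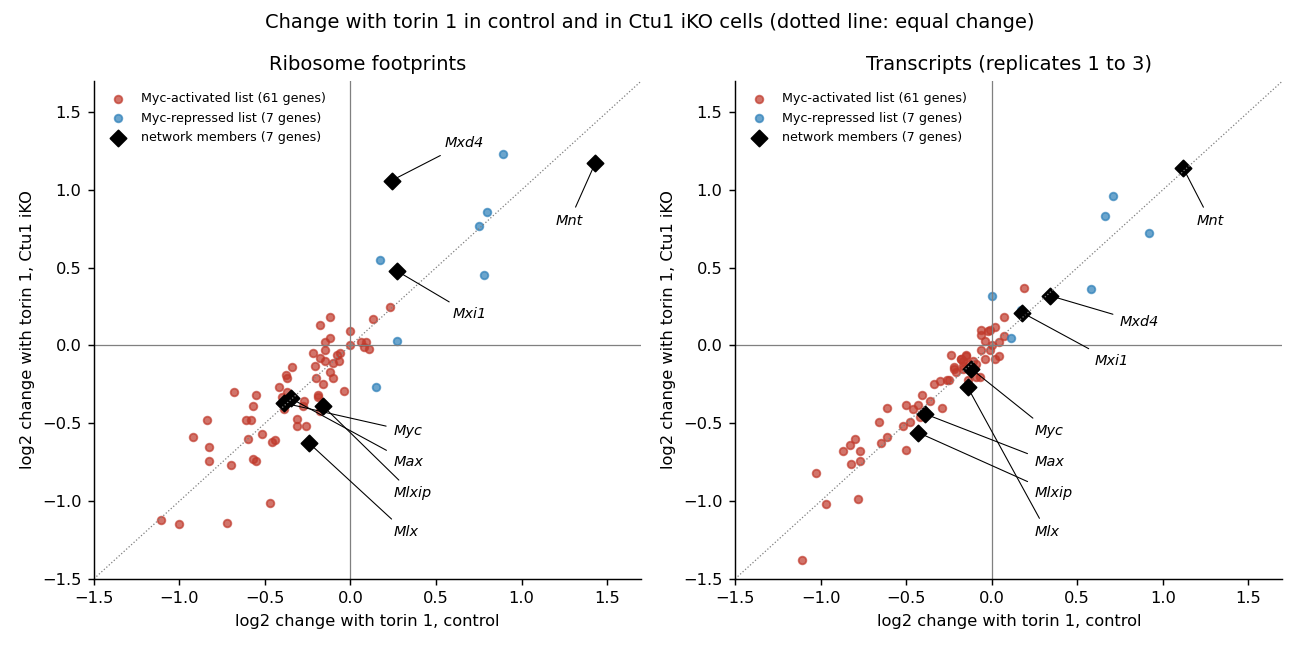
Log2 change with torin 1 in control (x axis) and in Ctu1 iKO (y axis) for footprints at the left and RNA of replicates 1 to 3 at the right, with 1 point per gene for the lists of Myc-activated and Myc-repressed genes and black diamonds for the 7 members. The activated genes lie mostly below 0 on both axes, with medians of -0.27 and -0.30 in footprints, and Mnt lies farthest to the upper right in RNA, at 1.12 and 1.14.

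Between the genotypes, 3 of the 61 activated genes were lower in Ctu1 iKO footprints with DMSO and 0 higher, where 1.04% of all genes were called lower and 1.63% higher. The 3 were Pa2g4, Hspd1 and Npm1, with log2 changes of -0.49 ± 0.08, -0.46 ± 0.08 and -0.41 ± 0.08. With torin 1 it was 4 and 0, where 2.60% of all genes were called lower and 2.23% higher, with Npm1, a nucleolar chaperone, at -0.94 ± 0.11 (edgeR adjusted p = 0.000193). The medians of the list were -0.13 and -0.08, and 47 and 44 of its 61 genes had a log2 change below 0. Of the repressed genes, Gadd45a, a growth arrest gene, was 3.27-fold higher in Ctu1 iKO with DMSO and 2.78-fold higher with torin 1 (edgeR adjusted p = 0.000583 and 0.0197). It was the 1 of 8 called with DMSO. With torin 1, 3 of 7 were higher, and Ndrg2 was lower (log2 change of -1.03 ± 0.24, edgeR adjusted p = 0.0242). In RNA, 4 of the 61 activated genes were lower with DMSO and 0 with torin 1, where 1.80% and 0.352% of all genes were called lower. In efficiency, 1 of the 61 was called in any comparison, Npm1 with torin 1 in Ctu1 iKO (log2 change of -1.32 ± 0.20, edgeR adjusted p = 0.00205), where 1.77% of all genes were called.

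Of the genes known as targets of Mlx and Mlxip, Txnip and Klf10 were listed and Arrdc4 was not. Txnip, which limits glucose uptake and binds thioredoxin, was higher in Ctu1 iKO. With DMSO its footprints were at 2.63, 4.23 and 6.0 CPM (lowest, median, highest of 6) in control and at 15.8, 6.33, 19.8, 17.0 and 14.0 CPM in Ctu1 iKO, a 3.48-fold rise without overlap (log2 change of 1.80 ± 0.27, edgeR adjusted p = 0.00393). With torin 1, the fold between the genotypes was 3.39 (1.76 ± 0.23, edgeR adjusted p = 0.000258), and in RNA it was 3.65 with DMSO and 3.54 with torin 1 (edgeR adjusted p = 0.0165 and 0.0194). The footprint difference with DMSO was 2.21 ± 0.21 in replicates 3 to 6 (edgeR adjusted p = 0.00431) and 1.04 ± 0.47 in replicates 1 and 2, not called (0.501). The RNA call with DMSO was lost without control replicate 2 or Ctu1 iKO replicate 1, and that with torin 1 without any one of the 3 control libraries or Ctu1 iKO replicate 2 (log2 change between 1.7 and 1.95 in these 6 fits).

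With torin 1, Txnip rose 1.93-fold in control footprints and 1.75-fold in control RNA (edgeR adjusted p = 0.0192 and 0.0293). In footprints the log2 change was 1.28 ± 0.23 in replicates 3 to 6 (edgeR adjusted p = 0.00869) and 0.31 ± 0.43 in replicates 1 and 2, not called (0.822). The RNA call was lost without control DMSO replicate 2 or 3 or control torin 1 replicate 1 or 3 (log2 change between 0.66 and 0.83). In Ctu1 iKO, Txnip changes of 0.91 ± 0.27 in footprints and 0.77 ± 0.24 in RNA were not called (edgeR adjusted p = 0.0582 and 0.0946). With the replicate block the RNA change was called (0.79 ± 0.11, edgeR adjusted p = 0.000664). The interaction was -0.04 ± 0.35 in footprints. Beside these, Mlxip RNA was called lower in Ctu1 iKO with DMSO, a call that was lost in each of the 6 fits without 1 library. It was not called with torin 1 (edgeR adjusted p = 0.0949), and Mlx and Mlxip footprints were not called in either comparison of the genotypes. Klf10 rose 1.53-fold in control footprints and 1.64-fold in control RNA with torin 1 (edgeR adjusted p = 0.0371 and 0.0124). The footprint groups overlapped, with 73.8 to 127 CPM with DMSO and 88.6 to 196 with torin 1, and the log2 change was 0.50 ± 0.21 in replicates 3 to 6 and 0.81 ± 0.16 in replicates 1 and 2, neither called (edgeR adjusted p = 0.213 and 0.0748). In Ctu1 iKO it was at 1.69-fold and 1.63-fold, not called (edgeR adjusted p = 0.0898 and 0.13). The RNA change in Ctu1 iKO was called with the replicate block (0.75 ± 0.11, edgeR adjusted p = 0.00107), and the control RNA call was lost without DMSO replicate 1 or 2 or torin 1 replicate 2 (log2 change between 0.62 and 0.67). Between the genotypes with torin 1, the same block called Klf10 higher in Ctu1 iKO, by 0.49 ± 0.09 in footprints and 0.31 ± 0.06 in RNA (edgeR adjusted p = 0.00665 and 0.00512). The fit without a block did not call it, nor did the batch block (0.48 ± 0.16 and 0.32 ± 0.14, edgeR adjusted p = 0.0825 and 0.168) or, in footprints, replicates 3 to 6 alone (0.45 ± 0.21, edgeR adjusted p = 0.25).

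Of the 27 cofactors and turnover factors of Myc that were tested, Skp2 fell with torin 1 in both genotypes. Skp2, a ubiquitin ligase subunit that acts on Myc and on Cdkn1b, fell in footprints of control (log2 change of -0.64 ± 0.11, edgeR adjusted p = 0.0015) and Ctu1 iKO (-0.53 ± 0.11, edgeR adjusted p = 0.00829). It was the 1 of 27 that fell in each, while 0 rose in control and 2 rose in Ctu1 iKO, Huwe1 and Hcfc1 (0.43 ± 0.10 and 0.36 ± 0.09), where 4.33% and 4.52% of all genes fell and 2.91% and 3.48% rose. In RNA, 4 of 27 fell and 1 rose, Kat5 (0.26 ± 0.06), in control, and 3 fell and 0 rose in Ctu1 iKO, where 7.40% and 4.52% of all genes fell and 5.69% and 3.73% rose. Skp2 fell in both. Usp36 and Fbxw7, a deubiquitinase that stabilises Myc and the ligase subunit that marks it for degradation, fell in both genotypes as well. Their log2 changes were -0.90 ± 0.12 and -0.84 ± 0.07 in control and -0.89 ± 0.15 and -0.82 ± 0.09 in Ctu1 iKO. Between the genotypes, Ruvbl2, Skp2 and Trrap were the 3 of 27 that were lower in Ctu1 iKO footprints with DMSO (-0.52 ± 0.10, -0.39 ± 0.10 and -0.32 ± 0.07), and 4 were lower with torin 1, among them Actl6a, Aurka and Ruvbl2, where 1.04% and 2.60% of all genes were called lower. The list's medians were -0.20 in both, with 23 of the 27 below 0 in each, and the medians of all genes were 0 and 0.012.

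The relatives outside the network's 7 genes were not called in any comparison. Mga had 86.6 to 168 footprint CPM over the 23 libraries and log2 changes with torin 1 of -0.11 ± 0.14 in control and 0.08 ± 0.17 in Ctu1 iKO. Mxd3 had 6 to 122 footprint counts a library, and changes of 0.00 ± 0.32 and 0.40 ± 0.35.

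Over the 23 footprint libraries, the genes with a profile most like that of Myc were Mdh2, Tcof1, Atxn2l, Khsrp and Serbp1, with root mean square differences of centred log2 CPM between 0.126 and 0.143 among 8850 genes compared. Tcof1, which acts in ribosomal RNA transcription, is also in the list of Myc-activated genes. Among the members, Max was nearest to Myc at 0.232, and Mnt farthest at 0.946. Mnt and Mxd4 varied most over the libraries, with an SD of 0.792 and 0.738, and Max least with 0.260 (log2). These likenesses describe the same libraries as the comparisons and were given no test.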

How the data were processed

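Ribosome footprints and poly(A) RNA of the same 23 cultures gave 46 libraries. For footprints, the authors digested lysates with RNase I, removed adapters and rRNA reads, extracted molecular identifiers and counted reads per gene with STAR (2.5.3a and UMI-tools 1.1.1 in the submitters' processing notes). The paper names a human genome for this step, while the labels name mm10 and the symbols are those of mouse. Whether identifiers were collapsed is not given in the sources used here. For RNA, a facility workflow counted paired reads, and all RNA counts are even. The deposited tables hold these counts per gene without normalization. Whether the RNA aliquot was taken before or after digestion is unclear.

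Genes averaging 10 counts or more over the libraries of a fit were tested with edgeR 4.0.16 (R 4.3.3, TMM, quasi-likelihood test), with Benjamini-Hochberg adjustment over all genes and a call at an adjusted p under 0.05. DESeq2 1.42.0 was an alternative. CPM were scaled by TMM over the 23 libraries of an assay. Efficiency was the interaction of assay and group over replicates 1 to 3. A standard error is the size of the log2 change over the root of its F value. The fits were tested on simulated data. Figures were drawn with matplotlib 3.10.9 in Python 3.11.15, with pandas 2.3.3 and numpy 2.4.6. Symbols on more than 1 entry were left out. Coding sequences came from GENCODE M21 and matched 97.5% of symbols, and promoters from RefSeq on GRCm38. Intervals and p-values assume that replicate numbers are separate cultures. The paper's methods name 2 independent replicates, as does a legend on RNA, while those on footprints name more, so libraries of a group may not all be independent.

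Same-numbered libraries deviated together in all pairs of the 4 RNA comparisons (correlations of 0.33 to 0.74) and of the footprint comparisons of torin 1 in control (0.46 to 0.65) and of genotypes with torin 1 (0.33 to 0.56). In the other footprint comparisons they did so in 4 of 5 pairs. The variance between libraries of 1 group was 21.7 times that of counting or more, and none was treated as a repeat of another.

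The members, lists and tests were chosen with earlier results of these data known. Named genes were the 7 members, 6 relatives, Txnip, Arrdc4 and, per list, comparison and direction, up to 3 called genes with the largest change. Alternatives were other tests, scalings, filters, replicate and batch terms, sets of replicates and leaving out each library. Libraries were not left out in the footprint comparisons of torin 1 in control and of genotypes with torin 1. The sets of replicates 1 and 2 and of 3 to 6 were added after the data were seen.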

Additional observations from a re-analysis of the deposited data

Results flagged for a closer look

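Over the 28 groups of footprint levels of the 7 members (7 genes in 4 groups of 5 or 6 libraries), 3 had a library that stood apart from the rest of its group by Dixon's 95% criterion, where chance gives about 1 in 20. Mxi1 footprints in control with DMSO were at 70.3 CPM in replicate 1, against 35.1 to 40.9 CPM in the other 5 libraries. Mlxip footprints in control with DMSO were at 21.1 CPM in replicate 2, against 15.0 to 15.5 CPM in the others. Mlxip footprints in control with torin 1 were at 21.3 CPM, also in replicate 2, against 12.1 to 14.5 CPM in the others. Neither gene was called in the footprint comparisons that these libraries enter. Groups of 3 RNA libraries were too small for this criterion.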

How the results depend on the processing

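Over 98 values of the members (7 genes in 14 comparisons) and 1490 values under alternatives, 1311 kept their direction and their side of the threshold, 48 lost a call and 40 gained one. A change of sign was found in 91 alternative values of 33 results, none of them a called value. The rise of Mnt with torin 1 in control footprints was called in all 9 alternatives, with log2 changes between 1.37 and 1.52. None of these 9 left out a single library. In Ctu1 iKO footprints it was called in 18 of 20, and in RNA in 12 of 13 for each genotype, the exception being all RNA replicates.

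In numbers of the 7 members called, torin 1 in control footprints went from 2 to 1 with replicates 1 to 3 and with replicates 1 and 2, and torin 1 in Ctu1 iKO footprints from 3 to 0 with either set and to between 1 and 4 without 1 library. Of all genes, replicates 1 to 3 and replicates 1 and 2 called 138 and 134 in control, beside 714 in the main fit. In Ctu1 iKO they called 178 and 144, and the fits without 1 library 527 to 921, beside 788 in the main fit. Genotype with torin 1 in footprints went from 0 to 1 with DESeq2, with 10 counts in every library, with the replicate block and with the batch block, and to 2 with replicates 3 to 6. The member called in each of these was Mxd4, joined by Myc in replicates 3 to 6. Mxd4 was listed with torin 1 through Ctu1 iKO replicate 4 alone, so its calls support no difference between the genotypes. Of all genes, 842, 499, 1425, 914 and 638 were called under these settings, in this order, and 479 in the main fit. In RNA, genotype with DMSO went from 2 to between 0 and 1 without 1 library, torin 1 in control from 3 to 7 with the replicate block and to 1 with all replicates, and torin 1 in Ctu1 iKO from 2 to 4 with DESeq2, to 7 with the replicate block, to 0 with all replicates and to between 1 and 3 without 1 library. All genes called were 0 to 511 without 1 library for genotype with DMSO, beside 518 in the main fit. For torin 1 in control they were 4206 with the replicate block and 916 with all replicates, beside 1259. For torin 1 in Ctu1 iKO they were 1609 with DESeq2, 3378 with the replicate block and 0 with all replicates, beside 794. Fits without 1 library called 123 to 1123 there. Genotype with torin 1 in RNA went from 0 to 2 with DESeq2 and the batch block and to 3 with the replicate block. There 1092, 1250 and 3162 of 9650 genes were called, beside 126 in the main fit. The 3 include Mxd4, whose listing rests on Ctu1 iKO footprint replicate 4. The causes were not tested. In Ctu1 iKO footprints with torin 1, whose same-numbered pairs did not all deviate together, the replicate block called Mnt, Mlx, Myc (-0.35 ± 0.08, edgeR adjusted p = 0.023) and Mxi1 and not Mxd4, and it also called Txnip (0.97 ± 0.20, edgeR adjusted p = 0.0134) and Klf10 (0.87 ± 0.18, edgeR adjusted p = 0.0133). It called 983 of all 9855 genes there, beside 788 in the main fit. The replicate block changed no other number of members called by more than 1.5 times.

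Over all genes, calls moved more. Main counts, with the lowest and highest over alternatives, were 277 (0 to 737), 714 (134 to 2019), 788 (144 to 1368), 479 (0 to 1425) and 63 (1 to 139) in footprints for genotype with DMSO, torin 1 in control, torin 1 in Ctu1 iKO, genotype with torin 1 and the interaction. In RNA they were, in the same order, 518 (0 to 2831), 1259 (412 to 4206), 794 (0 to 3378), 126 (0 to 3162) and 0 (0 to 3), and in efficiency 0 (0 to 21) for genotype with DMSO, 113 (63 to 227) and 170 (105 to 314) for torin 1 in control and Ctu1 iKO, and 11 (0 to 113) for genotype with torin 1. The lowest counts in footprints came with replicates 1 and 2 alone. Library totals shifted the median efficiency change of all genes with torin 1 to 0.16 in control and 0.20 in Ctu1 iKO from 0.03, and members' changes under it are to be read against that shift. They also moved the share of calls that were higher to 73.2% from 61.0% for genotype with DMSO and to 58.2% from 46.1% with torin 1 in footprints, and to 58.2% from 73.0% with torin 1 in RNA. Mxd4 had the fewest footprint counts of the members, with 17 to 121 a library, and how far depth limits each member was not tested.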
